A study of Mus musculus with 4 samples.

Results

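The genes described are 9 chemokine receptor genes known from myeloid cells and from the lymphocytes that circulate with them: Ccr1, Ccr2, Ccr7, Ccr9, Cx3cr1, Cxcr2, Cxcr3, Cxcr4 and Cxcr6. They were found by symbol in the probe annotation of the array, and all 9 had a probe set with a single symbol, out of 19938 genes measured. These members, and the gene lists set beside them below, were chosen with earlier results of these data known. Shares of all genes are therefore given for scale and do not test the members or the lists. RNA came from whole bone marrow of leukemic C57BL/6 mice. All of these leukemias carried MLL-AF9, an oncogene of acute myeloid leukemia made by a chromosomal fusion. The samples were 2 leukemic marrows labelled Hes1 null (MLL-AF9/Hes1-/-) and 2 labelled wild type (MLL-AF9/Hes1+/+), each on 1 Affymetrix mouse gene array. Hes1 encodes a transcriptional repressor induced by Notch signalling, and the comparison asks how its loss alters this leukemia. The age of the mice, how the fusion was introduced, whether any cells of a host remained and whether each sample was 1 animal are not stated in the labels, so the spread behind a p-value may be partly technical.

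Chemokine receptors are G protein-coupled receptors of the cell surface that let leukocytes follow gradients of small secreted proteins, the chemokines. In bone marrow, Cxcr4 binds Cxcl12 from stromal cells and keeps stem cells, progenitors and neutrophils in place, whereas Cxcr2 favours the release of neutrophils into blood and Ccr2 the release of monocytes. Cx3cr1, the receptor of the membrane-bound chemokine fractalkine (Cx3cl1), is carried by monocytes, macrophages and their dendritic cell relatives, most strongly by the patrolling monocytes of blood.

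Levels are given as log2 of the deposited intensity, and differences are Hes1-null minus wild type ± SE (standard error, n = 2 arrays in each genotype). The median probe set intensity lay between 65.1 and 66.6 on the Hes1-null arrays and between 65.0 and 67.3 on the wild-type arrays (linear scale). Across genes the Hes1-null arrays correlated at r = 0.982 and the wild-type arrays at r = 0.995, so the spread was wider within Hes1-null. Hes1 itself lay at 5.43 and 5.84 on the Hes1-null arrays, against 5.59 and 5.79 on the wild-type arrays. Its single probe set did not separate the genotypes, and its place relative to the deletion is not labelled, so Hes1-null means labelled Hes1-null throughout. All 11 leukemic progenitor genes examined, among them Hoxa9, Meis1 and Mpo, lay at 6.39 or above on every array. For a sense of background, the 95th percentile of 1027 olfactory receptor genes, which have no known role in marrow, was 5.57, and the 4 measured Y-linked genes did not exceed 4.09 on any array. Hes1 lay near 5.57 on all 4 arrays, wild type included, so its signal is hardly shown to stand above background.

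Ccr2 and Cx3cr1, the receptors that mark the main classes of monocytes, were the members that lay far apart between genotypes, both lower in Hes1-null marrow. Ccr2, which binds the monocyte chemoattractant Ccl2, measured 7.76 and 7.60 on the Hes1-null arrays, against 9.79 and 9.39 on the wild-type arrays. The lowest wild-type array thus stood 1.63 above the highest Hes1-null array, while the arrays of 1 genotype lay 0.16 apart in Hes1-null and 0.40 apart in wild type. The difference of -1.91 ± 0.20 corresponds to a 3.76-fold lower level in Hes1-null marrow (95% interval 2.64-fold to 5.37-fold). Cx3cr1 measured 7.29 and 6.53 on the Hes1-null arrays, against 9.51 and 9.17 on the wild-type arrays. Again the genotypes did not overlap, with a gap of 1.88, although the Hes1-null arrays lay 0.76 apart. The difference of Cx3cr1 was -2.43 ± 0.30, a 5.40-fold lower level (95% interval 3.20-fold to 9.09-fold). In a sample of whole marrow, fewer cells of a type and less RNA per cell cannot be told apart.

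Neither gene passed the test over all genes. The adjusted p by limma's moderated test was 0.0661 for Ccr2, from 0.000152 before adjustment. For Cx3cr1 the adjusted p by limma was 0.0862, from 0.000312 before adjustment. By size, Cx3cr1 held rank 20 and Ccr2 rank 43 among the most negative differences of 19938 genes. Of the 9 members, 0 had an adjusted p under 0.05, where 0.145% of all genes did (29 genes). At an unadjusted p under 0.05 there were 2 members lower in Hes1-null marrow, against 4.78% of all genes, and 0 members higher, against 3.51% of all genes. The same 2 members were at least 2-fold lower with no overlap of genotypes, which held for 1.22% of all genes. Both passed the adjusted threshold without Hes1-null replicate 1 (Ccr2 at 0.0408 and Cx3cr1 at 0.0369 by limma), a fit that takes the lone Hes1-null array to vary as the 2 wild-type arrays do and that called 999 genes against 29. When the arrays were left out in turn the adjusted p from limma reached 0.294 for Ccr2 and 0.187 for Cx3cr1, both without wild-type replicate 1, and with array weights that of Cx3cr1 was 0.0452.

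**Figure D1:**
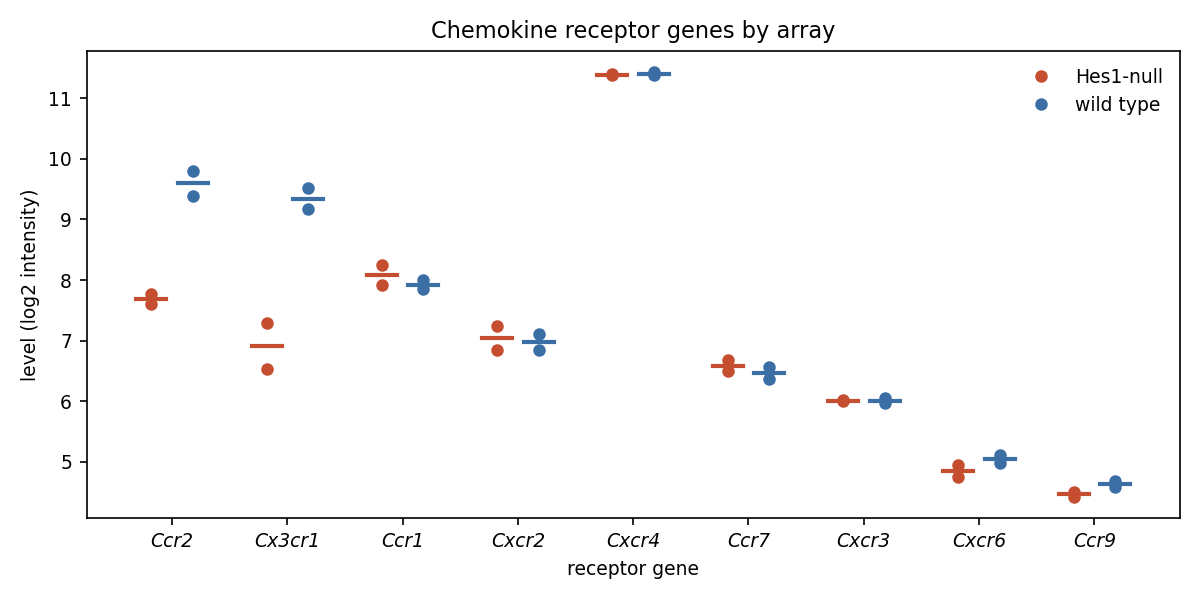
Level (log2 intensity) of each of the 9 receptor genes on the 4 arrays, Hes1-null left of wild type, with points for arrays and bars for the mean of 2. Ccr2 and Cx3cr1 stand apart by 1.63 and 1.88 between the nearest arrays of the genotypes, and the points of the other genes lie close together. Heights of different genes depend on their probes and are not compared.

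The 300-base promoter windows of the genes that differed most are shown with that of Cxcr4, whose level barely differed, because Hes1 is a DNA-binding repressor. RefSeq (GRCm38.p6) held a window around the gene's start, most of it upstream, for 8 of the 9 members, Ccr7 being the other. Capitals mark matches to the N-box that Hes-family repressors bind, CACNAG on the strand shown or CTNGTG where it lies on the opposite strand, each sequence being printed 5′ to 3′ along the gene's own strand. The Ccr2 window is chr9:124101933-124102232 (plus strand), the Cx3cr1 window chr9:120068247-120068546 (minus strand) and the Cxcr4 window chr1:128592250-128592549 (minus strand).
Ccr2: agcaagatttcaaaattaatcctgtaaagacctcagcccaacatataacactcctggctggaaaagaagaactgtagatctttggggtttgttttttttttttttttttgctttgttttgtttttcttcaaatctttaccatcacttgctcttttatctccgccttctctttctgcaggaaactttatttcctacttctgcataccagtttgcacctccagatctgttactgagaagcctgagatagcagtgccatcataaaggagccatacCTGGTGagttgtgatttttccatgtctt
Cx3cr1: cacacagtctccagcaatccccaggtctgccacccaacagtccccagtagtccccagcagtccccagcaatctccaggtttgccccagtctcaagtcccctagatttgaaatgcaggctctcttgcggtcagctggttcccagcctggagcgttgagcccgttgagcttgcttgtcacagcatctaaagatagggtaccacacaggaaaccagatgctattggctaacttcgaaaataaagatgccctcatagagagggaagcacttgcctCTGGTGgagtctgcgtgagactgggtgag
Cxcr4: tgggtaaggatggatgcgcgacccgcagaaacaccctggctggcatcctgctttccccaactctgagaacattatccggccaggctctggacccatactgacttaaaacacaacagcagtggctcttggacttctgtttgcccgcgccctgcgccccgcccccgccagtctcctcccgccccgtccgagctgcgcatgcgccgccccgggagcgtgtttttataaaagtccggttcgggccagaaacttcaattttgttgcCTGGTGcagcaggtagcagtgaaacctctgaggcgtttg
Each of these windows held 1 match, and a link between matches and the differences of the genes was not tested. Of the 8 windows, 7 held at least 1 match, against 42.6% of 27025 promoter windows of the same length. The exception was Cxcr6, and Cxcr3 held 2 matches. The related class C site of Hes repressors (CACGNG, either strand) was found in 1 of the 8 windows, that of Cxcr3, where it overlapped an N-box match, and in 27.7% of all windows. The core site of the myeloid factor PU.1 (GAGGAA, either strand) was found in 3 of the 8, those of Ccr1, Cxcr2 and Cxcr3, and in 28.3% of all windows. A match is a run of letters and not a measured binding site.

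The other 7 receptors lay close together in both genotypes. Ccr1, a receptor of monocytes and neutrophils that binds Ccl3, measured 7.91 and 8.25 on the Hes1-null arrays and 7.99 and 7.85 on the wild-type arrays. The genotypes overlapped, and the difference was 0.16 ± 0.19 (95% interval -0.33 to 0.64). Monocyte receptors therefore did not share one shift: the interval of Ccr1 excluded a difference as large as those measured for Ccr2 and Cx3cr1. Cxcr4, the receptor of marrow retention, measured 11.39 and 11.38 in Hes1-null and 11.37 and 11.43 in wild type. Its 4 arrays were within 0.06 of one another, and the difference of -0.017 ± 0.10 had an interval from -0.28 to 0.24. Cxcr2, which guides neutrophils towards Cxcl1 and Cxcl2, measured 6.85 and 7.24 on the Hes1-null arrays and 6.85 and 7.10 on the wild-type arrays. Its genotypes overlapped (0.07 ± 0.20).

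Receptors better known from lymphocytes and dendritic cells differed little. Ccr7, which directs dendritic cells and T cells to lymph nodes, measured 6.67 and 6.50 on the Hes1-null arrays and 6.56 and 6.36 on the wild-type arrays (0.13 ± 0.16). Cxcr3, a receptor of activated T and NK cells, measured 6.00 and 6.02 in Hes1-null and 6.06 and 5.97 in wild type (-0.0009 ± 0.13). Both genes overlapped between genotypes. Cxcr6, carried by NKT and effector T cells, measured 4.75 and 4.95 on the Hes1-null arrays and 5.11 and 4.99 on the wild-type arrays (-0.20 ± 0.14). Ccr9, the gut and thymus homing receptor that plasmacytoid dendritic cells also carry, measured 4.50 and 4.43 in Hes1-null and 4.69 and 4.59 in wild type (-0.18 ± 0.12). For Cxcr6 and Ccr9 the Hes1-null arrays lay below the wild-type arrays by a gap of only 0.04 and 0.09. Neither gene exceeded 5.57, the 95th percentile of olfactory receptor genes, on any array, so these levels are not shown to stand above background, and the difference between genotypes is read no further. With them, 4 of the 9 members did not overlap between genotypes, all lower in Hes1-null, against 20.6% of all genes in that direction.

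Among these 7 genes the smallest unadjusted p by limma was 0.199 (Cxcr6) and the smallest adjusted p 0.786 (Cxcr6 and Ccr9). A p that misses the threshold does not show equal levels. Where levels exceeded 5.57, the 95% intervals allow a difference of at most 1.21-fold either way for Cxcr4, 1.26-fold for Cxcr3 and 1.44-fold for Ccr7. For Cxcr2 and Ccr1 they allow at most 1.50-fold and 1.56-fold. No such limit is given for Cxcr6 and Ccr9, which did not exceed 5.57 on any array.

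**Figure D2:**
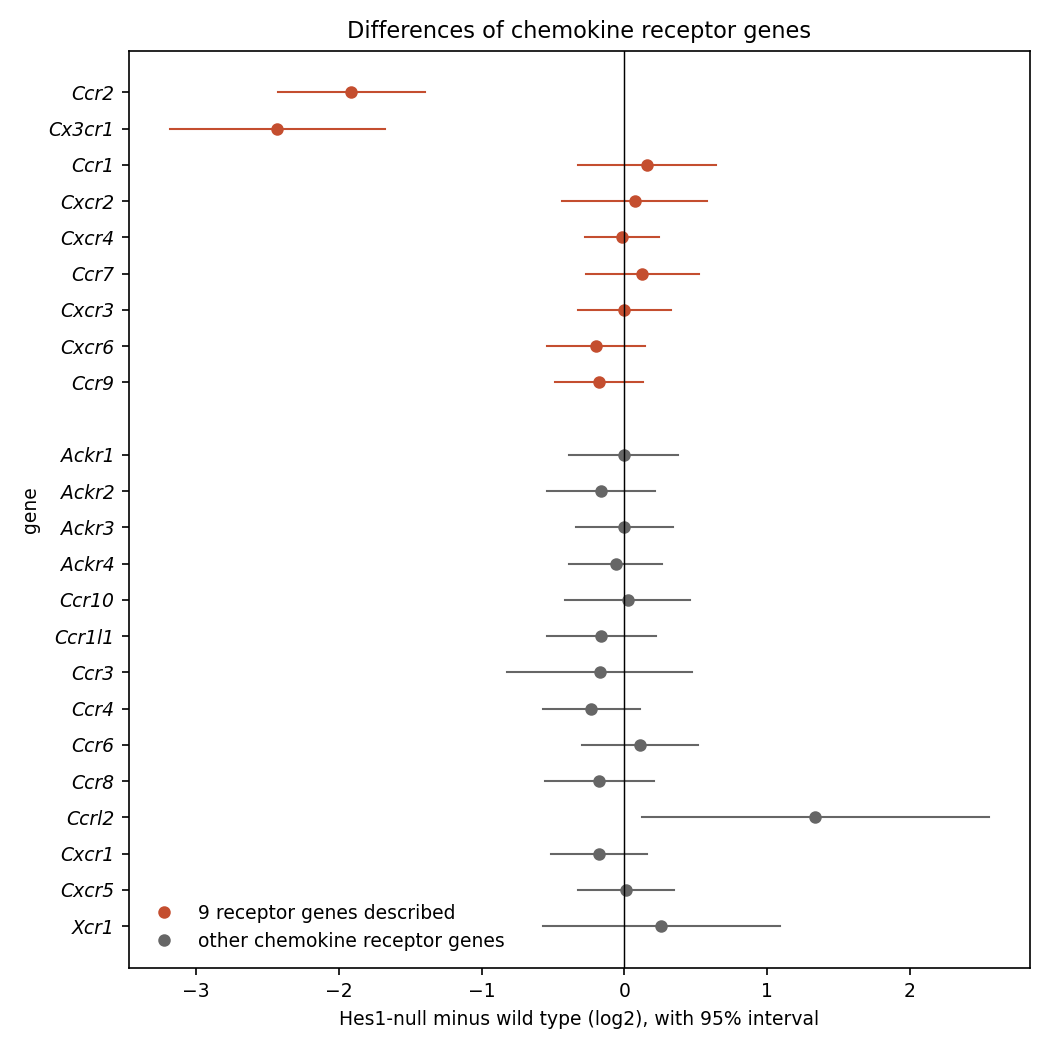
Difference (Hes1-null minus wild type, log2; points) with its 95% interval from limma (lines) for the 9 receptor genes, in red, and for 14 other chemokine receptor genes, in grey. Ccr2 (-1.91) and Cx3cr1 (-2.43) lie left of 0 with their whole intervals, the other 7 members span 0, and among the grey genes only the interval of Ccrl2 (0.12 to 2.55) leaves out 0.

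The rest of the receptor family gave few differences. A further 14 chemokine receptor genes were analysed here, with a median difference of -0.033 against -0.017 over all genes. In this list 0 genes passed the adjusted threshold by limma, and at an unadjusted p under 0.05 there was 1 gene higher (3.51% of all genes) and 0 lower. That gene was Ccrl2, an atypical receptor that presents the attractant chemerin without signalling itself. It measured 6.70 and 8.20 on the Hes1-null arrays, against 5.99 and 6.24 on the wild-type arrays (1.34 ± 0.48, adjusted p by limma = 0.559). Ccrl2 was higher on both Hes1-null arrays, which themselves lay far apart. Ccr4, Ccr8, Cxcr1, Ackr2 and Ccr1l1 had differences between -0.23 and -0.16, with no unadjusted p below 0.143. In all, 10 of the 14 genes were at or below 5.57 on every array.

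Ccr2 lies on chromosome 9 in a run of receptor genes that also holds Ccr9, Cxcr6, Xcr1, Ccr1, Ccr1l1 and Ccr3, and 5 of the 9 members are on that chromosome. Along the RefSeq gene order (GRCm38.p6) the differences were -0.18 ± 0.12 for Ccr9, -0.20 ± 0.14 for Cxcr6, 0.26 ± 0.33 for Xcr1, 0.16 ± 0.19 for Ccr1, -0.16 ± 0.15 for Ccr1l1, -0.17 ± 0.26 for Ccr3 and -1.91 ± 0.20 for Ccr2. The other receptor genes of this run thus lay within 0.26 of 0 (Ccr3 and Xcr1 are named for their position). Cx3cr1 lies elsewhere on the same chromosome.

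Among the chemokines that these receptors bind, some lay higher in Hes1-null marrow and others lower. Of 31 ligand genes 29 were analysed, with a median difference of -0.039 (-0.16 without Hes1-null replicate 2). By an adjusted p under 0.05 from limma, 1 rose and 0 fell (0.145% of all genes passed in either direction), and at an unadjusted p under 0.05 there were 5 higher (3.51% of all genes) and 5 lower (4.78%). The gene that rose was Ccl3, a ligand of Ccr1, at 12.88 and 13.12 on the Hes1-null arrays against 11.60 and 11.69 on the wild-type arrays (1.35 ± 0.11, adjusted p by limma = 0.0387). That call ended when Hes1-null replicate 2 (adjusted p 0.0645 by limma) or wild-type replicate 2 (0.0700) was left out, and the adjusted p ran from 0.0148 to 0.120 over all alternatives. Ccl9, which also binds Ccr1 in the mouse, measured 10.70 and 10.77 in Hes1-null and 9.42 and 9.13 in wild type. Its difference was 1.46 ± 0.16 (adjusted p by limma = 0.0774). For Ccl5, a further Ccr1 ligand, the difference was -0.33 ± 0.27. The genotypes thus overlapped for the receptor Ccr1 but not for Ccl3 or Ccl9, which lay 2.56-fold and 2.75-fold higher in Hes1-null marrow.

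For Ccr2, the ligand gene Ccl2 measured 8.03 and 10.94 on the Hes1-null arrays, against 6.83 and 6.76 on the wild-type arrays. Both Hes1-null arrays were higher but far apart (2.69 ± 0.90, adjusted p by limma = 0.522), so the size of the difference is poorly fixed. Ccl7 and Ccl12, which bind Ccr2 too, had differences of 0.35 ± 0.38 and 0.03 ± 0.16. Cx3cl1, the ligand of Cx3cr1, measured 5.74 and 6.06 in Hes1-null and 6.00 and 5.93 in wild type (-0.06 ± 0.16). Lower Cx3cr1 in Hes1-null marrow was thus not accompanied by a measurable difference of its ligand gene. The levels of Cx3cl1 lay not far above 5.57, however, where differences are poorly resolved.

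Of the Cxcr2 ligands, Cxcl2 measured 8.96 and 11.15 on the Hes1-null arrays, against 4.89 and 5.70 on the wild-type arrays (4.76 ± 0.73, adjusted p by limma = 0.139). Cxcl1 differed by 0.07 ± 0.14, and the platelet chemokine Ppbp, which also acts through Cxcr2, by -1.91 ± 0.23 (adjusted p by limma = 0.0862). Cxcl12, the ligand of Cxcr4, measured 5.50 and 5.36 in Hes1-null and 6.41 and 6.20 in wild type, a difference of -0.87 ± 0.15 (unadjusted p 0.00139, adjusted p 0.162 by limma). Ppbp and Cxcl12 did not exceed 5.57 on either Hes1-null array, nor did Cxcl2 on 1 wild-type array. Taken against that level where an array was below it, the Hes1-null level of Ppbp was lower at least 2.80-fold, that of Cxcl12 at least 1.67-fold, and that of Cxcl2 was higher at least 21.4-fold. Cxcl10 and Cxcl9, ligands of Cxcr3, differed by -0.53 ± 0.16 and -0.35 ± 0.48, Cxcl16, the ligand of Cxcr6, by -0.50 ± 0.18 (not above 5.57 on any array), Ccl25, the ligand of Ccr9, by 0.17 ± 0.19, and Ccl19, a ligand of Ccr7, by 0.02 ± 0.18. Ccl4, an inflammatory chemokine gene, differed by 2.66 ± 0.48 (adjusted p by limma = 0.186).

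**Figure D3:**
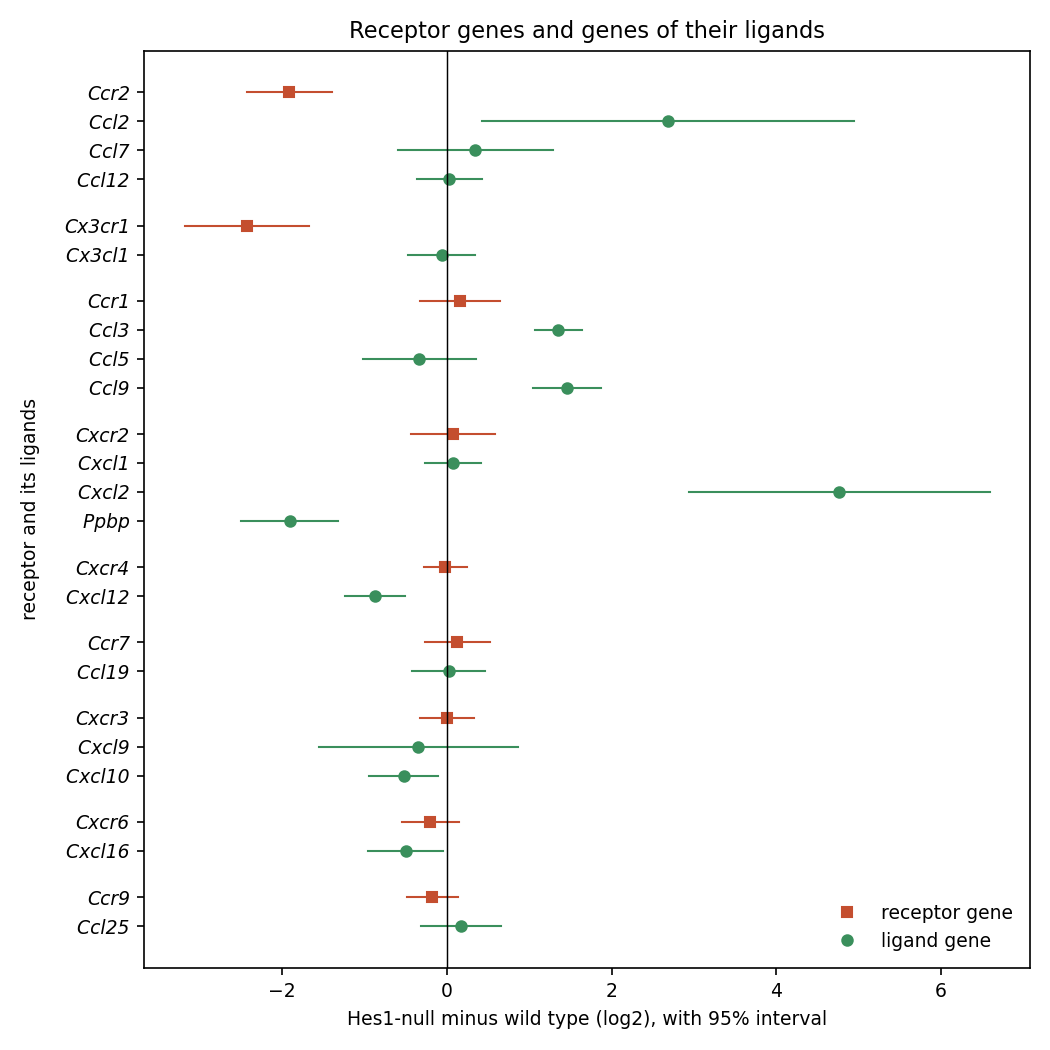
Differences (Hes1-null minus wild type, log2) with 95% intervals from limma, each receptor gene (square) above genes of its ligands (circles). Ccr2 and Cx3cr1 are left of 0 while Ccl2 is right of 0 and Cx3cl1 (-0.06) near it, and Ccr1 and Cxcr2 are near 0 beside Ccl3 (1.35) and Cxcl2 (4.76) on the right.

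Most marker genes of monocytes lay lower in Hes1-null marrow, as Ccr2 and Cx3cr1 did. Of 18 such genes, a list without chemokine receptors, 16 were analysed. The genotypes did not overlap for 12 genes lower in Hes1-null (20.6% of all genes) and 1 higher (17.4%). The median difference was -0.87, and -0.81 to -0.60 with an array left out. Over all genes 10677 differences were negative and 9261 positive, and among the monocyte genes 13 were negative and 3 positive. Those 3 were Nr4a1 (0.79 ± 0.34, the 1 without overlap), Cd14 (0.39 ± 0.45) and Fcgr3 (0.31 ± 0.23). At an unadjusted p under 0.05 there were 7 lower (6 to 9 with an array left out) and 0 higher, and 0 passed the adjusted threshold by limma. The smallest unadjusted p-values belonged to Irf8, a transcription factor of the monocyte lineage (-0.84 ± 0.12), F13a1, a clotting factor gene of classical monocytes (-0.93 ± 0.15), Ace, expressed by patrolling monocytes (-1.71 ± 0.39), and Adgre1, which encodes the macrophage antigen F4/80 (-1.08 ± 0.26). The summed linear intensity of the 16 genes was 13394 and 16901 on the Hes1-null arrays, against 22396 and 21536 on the wild-type arrays. Fcgr1 alone among them was at or below 5.57 on every array. The differences of Ccr2 and Cx3cr1 were larger than those of all 16 genes (lowest -1.71), and the part of the marker genes' cells in the receptors' difference was not tested.

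**Figure D4:**
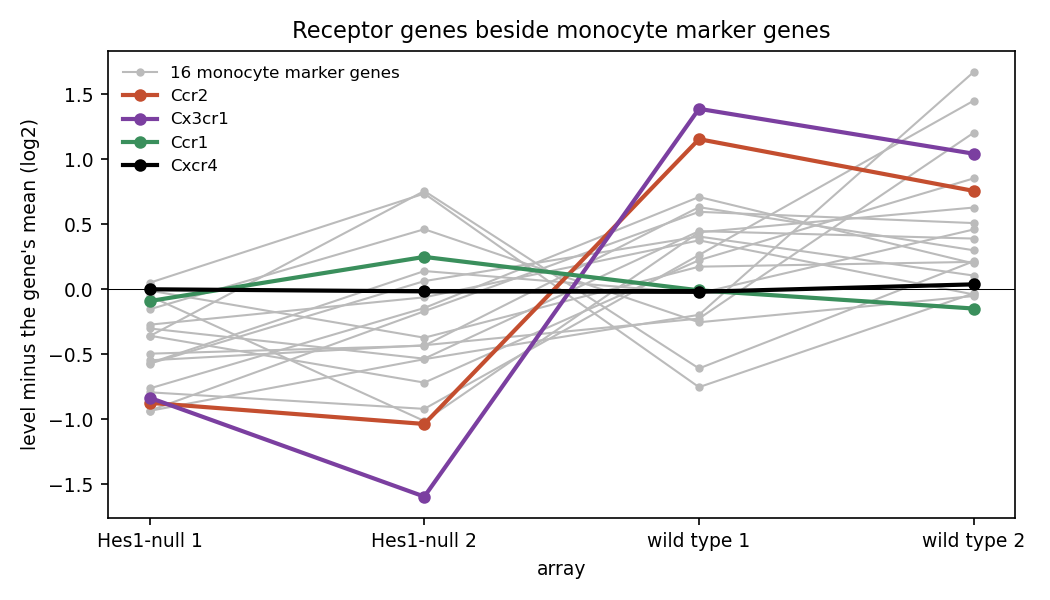
Level on each array minus the gene's mean over the 4 arrays (log2) for Ccr2, Cx3cr1, Ccr1, Cxcr4 and, in grey, 16 monocyte marker genes, with lines only joining the points of a gene. Ccr2 and Cx3cr1 are below 0 on both Hes1-null arrays and above 0 on both wild-type arrays, Ccr1 and Cxcr4 stay near 0, and for 12 of the grey genes the Hes1-null points lie wholly below the wild-type points.

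Markers of other cells that carry these receptors also stood lower in places. The counts below stand against 20.6% of all genes lower and 17.4% higher without overlap, and 4.78% lower and 3.51% higher at an unadjusted p under 0.05. Of 15 neutrophil genes, 11 were lower without overlap and 1 higher, with a median of -1.26 and 7 genes lower at an unadjusted p under 0.05. Leaving out Hes1-null replicate 1 gave a median of -0.73 and leaving out wild-type replicate 2 one of -0.56, which left 3 genes lower at that p, while 11 were lower without wild-type replicate 1. Ltf, the lactoferrin gene, fell (-2.77 ± 0.23, adjusted p by limma = 0.0398), with a range of adjusted p from 0.0131 to 0.128 over all alternatives. The call ended when Hes1-null replicate 2 (-2.90, adjusted p by limma 0.0775) or wild-type replicate 2 (-2.51, 0.0726) was left out, with the difference still of that size. Camp, an antimicrobial peptide gene, Cd177 and S100a8 had differences of -2.63 ± 0.51, -1.69 ± 0.32 and -1.81 ± 0.57. Their summed linear intensity was 11059 and 14905 on the Hes1-null arrays, against 16869 and 28135 on the wild-type arrays. Cxcr2, the neutrophil receptor, thus overlapped between genotypes whose neutrophil genes mostly did not. Among 13 T cell genes 3 were lower at an unadjusted p under 0.05 and the median was -0.32, with a summed intensity of 711 and 675 in Hes1-null and 1324 and 954 in wild type. Among 11 NK genes 3 were lower too, with a median of -0.14 and a sum of 444 and 335 in Hes1-null against 594 and 935 in wild type. Much of each difference in sum came from a single gene. In the T cell list Cd28 held 70.3 and 67.2 in Hes1-null against 539 and 233 in wild type. In the NK list Nkg7 held 170 and 56.4 in Hes1-null against 280 and 614 in wild type. On every array 6 of the T cell genes and 7 of the NK genes were at or below 5.57, and 6 and 2 exceeded it on every array. Among 10 dendritic cell genes 0 were lower and 1 higher at an unadjusted p under 0.05, Tcf4 (1.82 ± 0.18), a regulator of plasmacytoid dendritic cells that other progenitors express as well. Their sum was 2547 and 2699 in Hes1-null against 1216 and 1104 in wild type, and without Tcf4 it was 622 and 686 in Hes1-null against 575 and 618 in wild type. Among 9 B cell genes 0 passed in either direction (median -0.15, sum 1741 and 1016 in Hes1-null, 1269 and 1241 in wild type). Among 10 stromal and endothelial genes, the list that holds Cxcl12, 4 were lower at an unadjusted p under 0.05, and the sum was 1069 and 945 in Hes1-null against 1634 and 1617 in wild type. Vcam1, an adhesion molecule gene of stroma and macrophages, fell (-2.62 ± 0.17, adjusted p by limma = 0.0242), though not past the threshold when Hes1-null replicate 2 (0.0532) or wild-type replicate 2 (0.0700) was left out, with a range of 0.0106 to 0.120 over all alternatives. The 4 erythroid genes analysed had a median of -0.28 and a sum of 215 and 383 in Hes1-null against 421 and 363 in wild type. Among 11 genes of leukemic progenitors 0 passed the adjusted threshold by limma, and at an unadjusted p under 0.05 there were 4 lower and 1 higher. The lower ones were the granule protease and peroxidase genes Elane (-1.61 ± 0.18), Prtn3 (-0.80 ± 0.10) and Mpo (-1.83 ± 0.50) and the stem cell factor receptor gene Kit (-1.60 ± 0.60), and the higher one was the cytokine receptor gene Flt3 (1.94 ± 0.30). The sum of the 11 genes was 27984 and 22209 in Hes1-null against 35127 and 32908 in wild type. The part of these cells in the receptors' levels was not tested.

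Receptors for other chemoattractants were mostly lower as well. Of 14 genes 11 were analysed, and for 8 of them the Hes1-null arrays lay wholly below the wild-type arrays (20.6% of all genes), with 0 wholly above. The median was -0.31, 4 were lower at an unadjusted p under 0.05 (4.78% of all genes) and 0 passed the adjusted threshold by limma. Without wild-type replicate 2 only 1 had an unadjusted p under 0.05, and leaving out Hes1-null replicate 1 gave a median of -0.73. C3ar1, the receptor of the complement fragment C3a, measured 5.50 and 5.52 on the Hes1-null arrays, against 6.55 and 7.47 on the wild-type arrays (-1.50 ± 0.31). Neither Hes1-null array exceeded 5.57, so that the Hes1-null level, taken at 5.57, was lower by a factor of at least 2.71. The receptors of the complement fragment C5a were lower in the same way, C5ar2 by a difference of -0.73 ± 0.16 and C5ar1 by -0.98 ± 0.37. S1pr4, a receptor of the lipid sphingosine 1-phosphate in leukocytes, measured 8.25 and 8.44 in Hes1-null and 8.93 and 9.53 in wild type (-0.89 ± 0.25).

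The genes most like Ccr2 and Cx3cr1 over the 4 arrays were found by the Euclidean distance between log2 levels centred on each gene's mean. Nearest to Cx3cr1 were Akr1e1 (distance 0.30), Frmd4b (0.43), Hdac9 (0.48) and Il1rl2 (0.48). Nearest to Ccr2 were Pid1 (0.23), Rnase2a (0.23), Serpinb10 (0.27) and Hdac9 (0.29). Akr1e1, Il1rl2 and Rnase2a did not exceed 5.57 on either Hes1-null array, so their distances rest partly on levels not shown to stand above background. Hdac9, a class IIa histone deacetylase gene, stood in both groups. The distance between Ccr2 and Cx3cr1 themselves was 0.67, whereas each lay at least 1.74 from the other 7 members. Cxcr6, the member next in size of difference, had Usp43, Actrt2, Abi3bp and Defb14 nearest to it, at distances of 0.01 to 0.016, for a gene not shown to stand above background. Over 4 arrays many genes share a pattern, and nearness describes these arrays only.

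**Figure D5:**
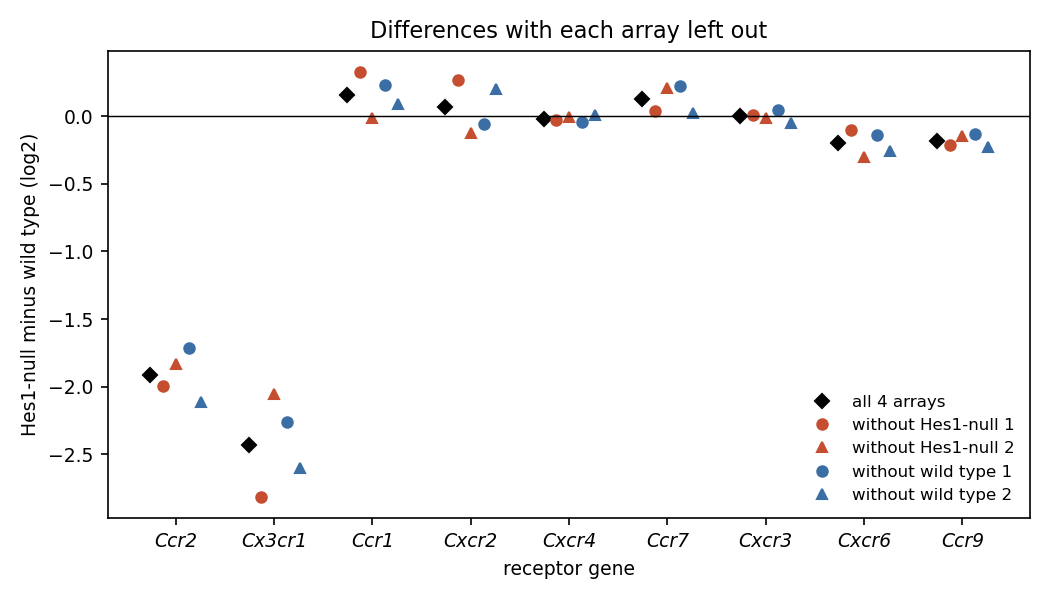
Difference (Hes1-null minus wild type, log2) of each receptor gene with all 4 arrays (black diamonds) and with each array left out in turn. Ccr2 stays between -2.11 and -1.71 and Cx3cr1 between -2.81 and -2.05, and the other 7 genes stay within 0.33 of 0.

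The size of both large differences held when single arrays were left out, which moved Ccr2 between -2.11 and -1.71 and Cx3cr1 between -2.81 and -2.05. Since the genotypes of these genes do not overlap, leaving out an array cannot turn their sign. For the other 7 members no array's removal took the difference beyond 0.33 in size.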

How the data were processed

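Total RNA of leukemic whole marrow was hybridised to Affymetrix MoGene arrays, 1 per sample. The submitters' processing notes name RMA and Affymetrix Expression Console, without versions, for the deposited intensities. They are on a linear scale, so log2 was taken with nothing added. Of 35556 probe sets, the platform annotation gives 21789 a single symbol and 1621 several, and 12146 are unnamed here. Entrez identifiers matched 21698 to RefSeq (GRCm38.p6), and 0 symbols changed. For 999 genes with several probe sets the one with the highest mean stood for the gene, and each of the 9 receptor genes had 1.

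The test over 19938 genes used R 4.3.3 and limma 3.58.1 (lmFit, eBayes with intensity trend, two-sided, genotype only, 2 residual and 3.41 prior degrees of freedom), with Benjamini-Hochberg adjustment over all genes at 0.05. An exact permutation test of 2 against 2 arrays cannot go below p = 0.333. The fit was also run on simulated data with equal spread on all 4 arrays, which cannot test the effect of the wider spread within Hes1-null. Lists are described by counts and medians. The members and lists were chosen with earlier results of these data known. Named are the members, their ligands, up to 4 genes of smallest p per list (6 for receptors and ligands), any called, the 4 nearest patterns of 3 members, and genes named for position. The monocyte genes with a positive difference are named too. Alternatives covered scaling, filters, moderation, weights, probe sets, a value of 16 added before log2, a replicate block and left-out arrays.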

Additional observations from a re-analysis of the deposited data

How the results depend on the processing

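Ccr2 and Cx3cr1 kept a negative difference under all 15 alternatives, at -2.11 to -1.71 and -2.81 to -2.05, and 2 receptor genes had an unadjusted p under 0.05 in each. Their adjusted p by limma ran from 0.0292 to 0.294 and from 0.0173 to 0.187. The number of receptor genes called, 0 with the design as fixed, was 1 with array weights and 0 to 2 with an array left out. With the replicate number as a block it was 2 (Ccr2 at an adjusted p of 0.0292 and Cx3cr1 at 0.0173 by limma) and 89 genes were called in all, but the series' design text, which speaks of 2 pairs, does not say what a pair has in common, and deviations of same-numbered arrays correlated at only r = 0.050 across genes. The 29 calls over all genes became 17 and 5 at the 25th percentile and median filters on level, 45 with array weights, 0 when every probe set was tested and 6 to 999 with an array left out. At an unadjusted p under 0.05 there were 1053 genes at the median filter, 2809 probe sets when each was tested and 664 to 5783 genes with an array left out, against 1652. With an array left out, 5 to 8 receptor genes did not overlap, as fewer arrays overlap less often. The signs of the small differences were not fixed: Cxcr3 was 0.051 and Cxcr4 0.0028 after a further quantile normalization, and 0.031 and 0.015 after centring. Left-out arrays moved Ccr1 between -0.013 and 0.33, Cxcr2 between -0.12 and 0.27, Cxcr3 between -0.046 and 0.045 and Cxcr4 between -0.046 and 0.012. The filters left out Cxcr6 and Ccr9, and the median filter Cxcr3. At the median filter 8 ligand genes were left, with a median difference of 1.41 against -0.039 before, and 1 of the other chemokine receptors, Ccrl2 (1.34 against -0.033); these medians follow from the fewer genes. The cause of the other changes was not tested. With 2 arrays per genotype and no detection calls, small differences and dim genes are poorly resolved.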

Other observations

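Of 28 genes that act downstream of chemokine receptors 27 were analysed, with a median difference of -0.098 against -0.017 over all genes. The difference was negative for 21 of the 27, against 10677 of all 19938 genes, and 23 of the 27 had an unadjusted p of 0.05 or more by limma. The genotypes did not overlap for 10 genes lower in Hes1-null (20.6% of all genes) and 4 higher (17.4%). At an unadjusted p under 0.05 there were 2 lower (4.78% of all genes) and 2 higher (3.51%), with 0 past the adjusted threshold by limma. Tiam1, which encodes an activator of the GTPase Rac, measured 8.29 and 8.56 on the Hes1-null arrays, against 10.02 and 10.51 on the wild-type arrays (-1.84 ± 0.22, adjusted p by limma = 0.0862). Grk3, a kinase gene of receptor desensitisation, measured 5.96 and 5.10 in Hes1-null and 6.39 and 7.79 in wild type (-1.56 ± 0.52). Rgs1 and Rgs2, whose products shorten G protein signals, lay higher, with differences of 2.34 ± 0.71 and 0.76 ± 0.29. The Hes1-null arrays of Rgs1 were far apart, at 5.51 and 7.77, and its wild-type arrays lay at 4.53 and 4.06. Only 1 array of Rgs1 thus exceeded 5.57, the 95th percentile of olfactory receptor genes, so the size of its difference is poorly fixed. Grk3 did not exceed 5.57 on 1 Hes1-null array and, taken at that level there, had a 2.51-fold lower mean. Its 95% interval from limma, on the levels as measured, begins at 1.195-fold. The G protein subunit gene Gnai2 and the Rac gene Rac2, chosen after their values were seen, differed by -0.064 ± 0.083 and 0.093 ± 0.080.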
